A study of Mus musculus with 9 samples.

Results

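The genes described here encode the core of the NF-kB pathway: the transcription factor subunits Nfkb1, Nfkb2, Rela and Relb, the inhibitors Nfkbia and Nfkbiz, and the kinases and scaffold Chuk, Ikbkb, Ikbkg and Ikbke. They were chosen by gene name and make up 10 of the 561 genes, housekeeping genes included, on a mouse immunology panel. The panel was read on the nCounter system, which hybridises a colour-coded probe pair to each transcript and counts single molecules without amplification. Ileal epithelial cells came from male mice of the non-obese diabetic (NOD) strain, a model of autoimmune diabetes, at postnatal day 23. The 3 groups had 3 libraries each: control mice, mice given antibiotics (1PAT antibiotics in the labels, an abbreviation they do not expand) and mice given a cecal material transfer. Whether the transfer mice were given antibiotics beforehand is not stated in the labels, which give every library the same batch number. Nor is each library said to be a separate mouse, so p-values measure library-to-library spread, which may be technical. When gene counts were compared for each pair of libraries, transfer replicates 1 and 3 differed least, with a chi-square per degree of freedom of 6.75. The other pairs had 22.6 to 525. Whether those transfer libraries are independent was not tested.

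NF-kB proteins sit in the cytoplasm bound to inhibitors of the I-kappa-B family until a signal, such as a microbial product at a Toll-like receptor or a tumour necrosis factor family cytokine, activates the IKK complex. IKK phosphorylates the inhibitor, the inhibitor is degraded, and the freed dimer enters the nucleus. The canonical arm releases dimers of p50 and RelA. In the non-canonical arm IKK-alpha drives the processing of p100 to p52, which pairs with RelB. In the gut epithelium the pathway is known both for protecting the barrier and for driving inflammatory genes, and much of its control is by protein modification and location, which RNA counts do not show.

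Total counts per library ran from 323129 to 747434 over the 561 genes. The limit of detection, the mean of the negative-control probes plus 2 SD, lay between 7.74 and 17.7 counts, and 470 genes passed it in at least 3 libraries and were tested. All 10 NF-kB genes passed. In every library all 10 were above the limit, except Ikbkg in antibiotic replicate 2, at 10 counts. Control replicate 3 stood apart on the first principal component (52.4% of the variance), at -27.5 against -7.26 to 11.7 for the other libraries, so values without it are given beside those of the members it moved most.

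Epithelial marker genes on the panel (Pigr, Ccl25, Defb1 and Il18) were abundant, with 3 or all 4 above the limit in each library and a summed level of 39192 to 99366 CPM. CPM values are counts scaled to a common library total, adjusted by edgeR's trimmed mean of M-values (TMM). Lymphocyte RNA was also present. The 13 T cell markers summed to 5157 to 23277 CPM in control, 27079 to 30370 CPM in antibiotic and 21824 to 36257 CPM in transfer libraries, and every antibiotic library lay above every control library. The 8 B cell markers summed to 2034 to 5590 CPM in control, 7453 to 9491 CPM in antibiotic and 5850 to 10363 CPM in transfer libraries, with no overlap between control and either other group. Summed macrophage and dendritic markers (6 genes) were 554 to 634 CPM in control, 399 to 531 CPM in antibiotic and 355 to 487 CPM in transfer libraries, with every control library above the other 6. Granulocyte and mast cell markers (5 genes) summed to 361 to 1123, 1237 to 1339 and 976 to 1388 CPM in the same order, and endothelial and stromal markers (3 genes) to 254 to 741, 559 to 807 and 651 to 1123 CPM. No defining marker list summed to 0 in any library. The part of these markers in the NF-kB values was not tested apart from the relations given further on, and in bulk RNA fewer cells of a type and less RNA per cell cannot be told apart.

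Across all 3 comparisons, none of the 10 NF-kB genes passed the test. Most had lower means in the antibiotic and transfer groups than in control, and the control libraries spread widely. As a share of all counts, the 10 genes took 1.19 to 1.59% of a control library, above all 6 other libraries, which held 0.820 to 1.15%. The share involves no scaling between libraries and is carried mainly by Nfkbia, Nfkbiz and Chuk, the genes with the highest counts. Housekeeping genes showed the same order, with 19.0 to 24.5% of the counts of a control library and 15.05 to 18.1% of the other libraries, so it is not particular to the NF-kB genes.

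**Figure D1:**
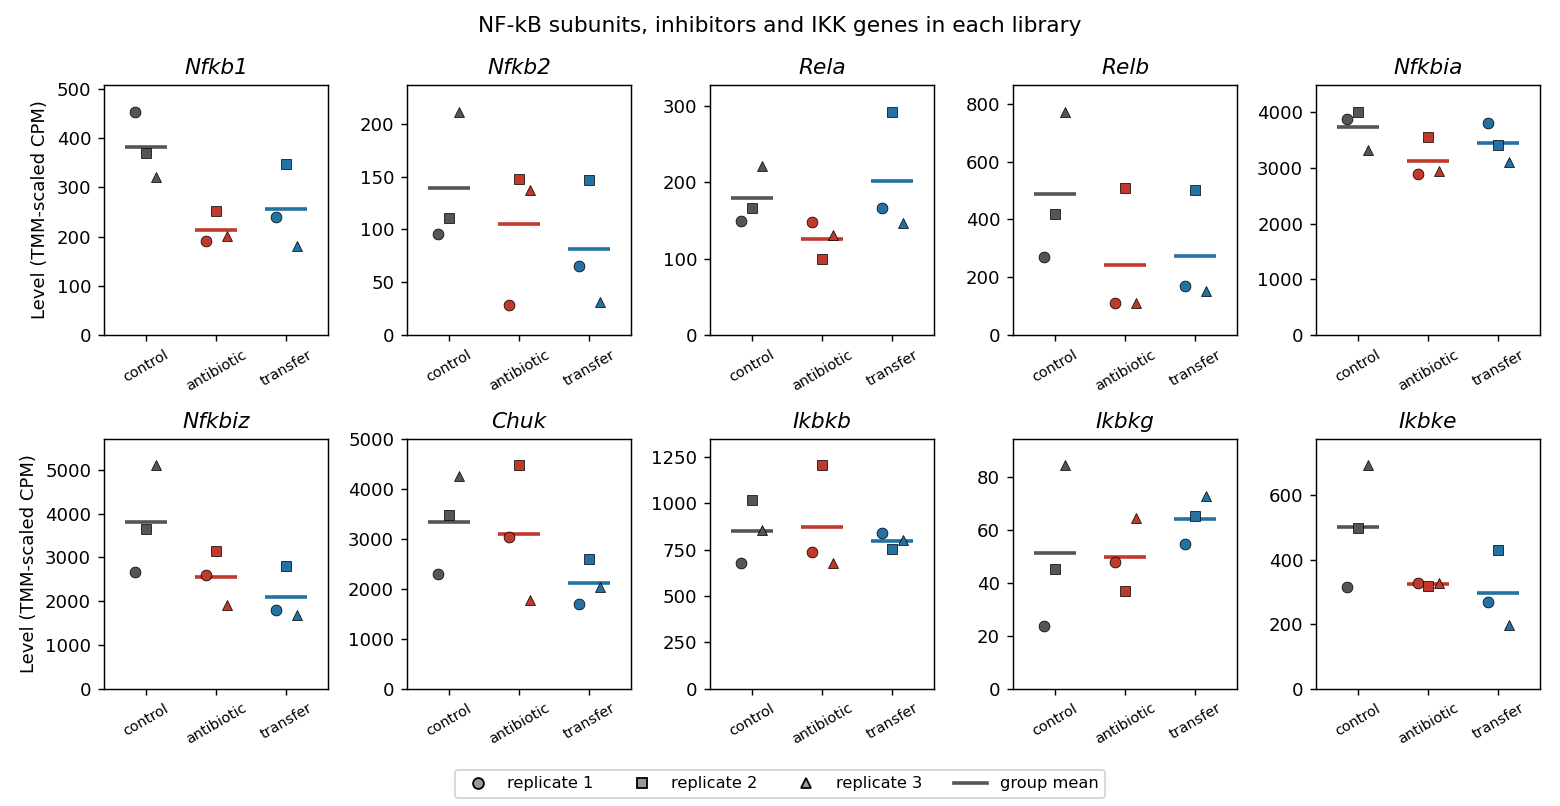
Level of each of the 10 NF-kB genes in the 9 libraries (CPM after TMM scaling, each panel on its own axis from 0), with points for libraries and a bar for each group mean. Nfkb1 is the clearest separation, with all 3 control libraries (321 to 454 CPM) above all 3 antibiotic libraries (191 to 252 CPM).

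Nfkb1 encodes p105, the precursor of the p50 subunit of canonical NF-kB. Its level was 454, 371 and 321 CPM in control replicates 1, 2 and 3. In antibiotic libraries it was 191, 252 and 201 CPM, and in transfer libraries 239, 348 and 181 CPM. The control and antibiotic groups did not overlap, while transfer replicate 2 reached into the control range. The antibiotic mean was 214 ± 32.6 CPM (SD, n = 3) against 382 ± 67.1 CPM in control, a log2 fold change of -0.84 ± 0.38 (SE; 95% interval -1.65 to -0.03). With edgeR's quasi-likelihood test and Benjamini-Hochberg adjustment over 470 genes the adjusted p was 0.212, so the difference did not pass. Transfer against control gave -0.57 ± 0.37 (edgeR adjusted p 0.335), and transfer against antibiotic gave 0.26 ± 0.37 (edgeR adjusted p 0.993). Without control replicate 3 the antibiotic and transfer differences from control were -0.998 and -0.73.

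Rela encodes p65, the partner of p50 that carries the transactivation domain. Its level was 149.9, 166 and 221 CPM in control, 148, 99.9 and 131 CPM in antibiotic, and 167, 292 and 146 CPM in transfer libraries. Control and antibiotic did not overlap, but the highest antibiotic library and the lowest control library were 148 and 149.9 CPM. The log2 difference between these groups was -0.50 ± 0.41 (edgeR adjusted p 0.513), and -0.35 without control replicate 3. Transfer against control gave 0.17 ± 0.40 (edgeR adjusted p 0.793), and 0.31 without that library. Rela had the largest difference of the 10 genes between transfer and antibiotic, 0.67 ± 0.41 (95% interval -0.21 to 1.55; edgeR adjusted p 0.993), with overlapping groups and transfer replicate 2 as the highest library.

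Relb encodes RelB, the partner of p52 in the non-canonical arm. It ranged over 7.04-fold among the libraries. Control libraries held 271, 419 and 773 CPM, antibiotic libraries 109.7, 510.4 and 110.1 CPM, and transfer libraries 169, 501 and 151 CPM. In both treated groups a single library, replicate 2, lay in the control range and the others below every control library. The antibiotic log2 difference from control was -1.03 ± 0.67, the largest of the 10 genes in size, with an interval of -2.47 to 0.41 and an edgeR adjusted p of 0.375. It was -0.62 without control replicate 3 and -2.15 without antibiotic replicate 2. Transfer against control gave -0.83 ± 0.66 (edgeR adjusted p 0.424), which was -0.38 without control replicate 3 and -1.61 without transfer replicate 2.

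Nfkb2 encodes p100, which holds RelB in the cytoplasm until it is processed to p52. It had the widest range of the 10 genes, 7.32-fold, but the low end lay near the detection limit. Antibiotic replicate 1 held 15 counts, 1.25 times the limit, and transfer replicates 1 and 3 held 25 and 21. The level of Nfkb2 was 95.6, 111 and 212 CPM in control, 28.9, 148 and 138 CPM in antibiotic, and 65.0, 147 and 31.3 CPM in transfer libraries. Within both treated groups the values spread from about the lowest to well inside the control range, so the groups overlapped. Log2 differences from control were -0.42 ± 0.65 for antibiotic (edgeR adjusted p 0.725) and -0.77 ± 0.65 for transfer (edgeR adjusted p 0.462). Without control replicate 3 they were -0.049 and -0.39, and the transfer difference was -1.55 without transfer replicate 2.

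Nfkbia encodes I-kappa-B-alpha, the inhibitor that masks p50 and RelA dimers and whose gene is itself a known NF-kB target. It was the steadiest of the 10 genes, with 1.39-fold between the highest and the lowest library. Control libraries held 3889.7, 4013 and 3325 CPM, antibiotic libraries 2894, 3562 and 2941 CPM, and transfer libraries 3811, 3414 and 3115 CPM. The 3 groups overlapped. The antibiotic log2 difference from control was -0.26 ± 0.28 (95% interval -0.85 to 0.34; edgeR adjusted p 0.631), and the transfer difference was -0.12 ± 0.28 (95% interval -0.71 to 0.48; edgeR adjusted p 0.793). Leaving out control replicate 3 gave -0.39 and -0.24.

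The 250 bases upstream of the start site are shown for the steadiest and the most variable gene, Nfkbia and Nfkb2, and for Ikbke, the gene with the strongest Pearson correlation with the summed T cell markers. They come from RefSeq (assembly GRCm38.p6) and were matched by symbol, which succeeded for 6 of the 10 genes. Capitals mark matches to the kappa-B consensus, searched on both strands. Nfkbia lies on the minus strand at chr12:55492648-55492897, the first Nfkb2 window on the plus strand at chr19:46304487-46304736, and Ikbke on the minus strand at chr1:131279564-131279813.
Nfkbia: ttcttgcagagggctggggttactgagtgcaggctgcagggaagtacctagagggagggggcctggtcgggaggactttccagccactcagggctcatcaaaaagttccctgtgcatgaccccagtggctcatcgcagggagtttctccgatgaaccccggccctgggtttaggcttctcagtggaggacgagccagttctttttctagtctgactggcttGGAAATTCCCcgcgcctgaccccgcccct
Nfkb2: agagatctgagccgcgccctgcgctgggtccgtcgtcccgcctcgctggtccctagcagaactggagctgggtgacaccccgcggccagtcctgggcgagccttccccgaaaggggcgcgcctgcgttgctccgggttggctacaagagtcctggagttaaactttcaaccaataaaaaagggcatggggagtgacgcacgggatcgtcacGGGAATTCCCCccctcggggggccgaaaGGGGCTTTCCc
Ikbke: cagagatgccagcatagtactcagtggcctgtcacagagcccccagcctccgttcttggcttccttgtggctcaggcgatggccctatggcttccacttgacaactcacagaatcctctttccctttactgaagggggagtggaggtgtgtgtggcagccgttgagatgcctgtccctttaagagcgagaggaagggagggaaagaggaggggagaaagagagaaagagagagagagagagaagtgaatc

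The Nfkbia window held 1 kappa-B match, beginning 29 bases before the start site. The first of 3 Nfkb2 windows held 3 matches, of which the pair beginning at 39 and 38 bases before the start overlap and appear as 1 run of capitals. Windows of Rela, Chuk, Ikbkg and Ikbke held none upstream. Of 32851 promoter windows of 300 bases (250 before and 50 after the start), 7.25% held at least 1 upstream match. Upstream matches numbered 3 or more in 0.143%. Among 435 windows of tested panel genes the shares were 12.6% and 0.46%. The 50 bases after the start were not searched for these shares. The steadiest and the most variable gene both held matches, and a match of letters does not show that a factor binds.

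Nfkbiz encodes I-kappa-B-zeta, a nuclear member of the family that binds p50 and switches on a subset of secondary response genes. Its level was 2665, 3663 and 5109 CPM in control, 2595, 3140.3 and 1916 CPM in antibiotic, and 1790.0, 2806 and 1675 CPM in transfer libraries. Control replicate 3 was the highest of all libraries, and control replicate 1 lay below the highest library of each treated group. Transfer against control gave -0.87 ± 0.35 on the log2 scale (95% interval -1.63 to -0.11), with an edgeR adjusted p of 0.208. This was the largest difference of the 10 genes in that comparison. Without control replicate 3 it was -0.64 (edgeR adjusted p 0.382). Antibiotic against control gave -0.58 ± 0.35 (edgeR adjusted p 0.339), and -0.37 without control replicate 3.

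Chuk encodes IKK-alpha, the kinase needed for p100 processing. Control libraries held 2296, 3478 and 4273 CPM, antibiotic libraries 3038, 4479 and 1767 CPM, and transfer libraries 1707, 2598 and 2035 CPM. The antibiotic libraries alone spanned the whole control range. The antibiotic log2 difference from control was -0.12 ± 0.38 (edgeR adjusted p 0.866) and the transfer difference was -0.66 ± 0.38 (edgeR adjusted p 0.285). Without control replicate 3 they were 0.033 and -0.49.

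Ikbkb encodes IKK-beta, the main canonical kinase. It was 678, 1020.1 and 858 CPM in control, 739, 1206 and 677 CPM in antibiotic, and 843, 753 and 800.1 CPM in transfer libraries. The means of the 3 groups were 852 ± 171, 874 ± 289 and 799 ± 45.1 CPM (SD, n = 3 each) and the groups overlapped. The antibiotic log2 difference from control was 0.03 ± 0.34, with an interval of -0.69 to 0.76 (edgeR adjusted p 0.958), the only positive value of the 10 genes in that comparison.

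Ikbkg encodes NEMO, the regulatory scaffold of the IKK complex, and had the lowest counts of the set. Its level was 23.9, 45.3 and 84.6 CPM in control, 48.1, 37.0 and 64.7 CPM in antibiotic, and 54.6, 65.4 and 73.1 CPM in transfer libraries. Transfer libraries lay inside the control range. Its transfer difference from control was 0.33 ± 0.51 on the log2 scale (edgeR adjusted p 0.691). The 95% interval was -0.78 to 1.44. The antibiotic difference was -0.02 ± 0.52 (edgeR adjusted p 0.982). With its highest library, control replicate 3, left out, the differences were 0.85 for transfer and 0.50 for antibiotic.

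Ikbke encodes IKK-epsilon, a relative of the IKK kinases best known for interferon induction through IRF3. Control libraries held 315, 498 and 692 CPM, antibiotic libraries 327, 318 and 326 CPM, and transfer libraries 268, 428 and 197 CPM. The 3 antibiotic libraries were nearly equal (324 ± 5.02 CPM, n = 3) and lay just above control replicate 1 and below the other control libraries. Log2 differences from control were -0.63 ± 0.40 for antibiotic (edgeR adjusted p 0.373) and -0.75 ± 0.40 for transfer (edgeR adjusted p 0.253). Without control replicate 3 they were -0.38 and -0.50.

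The antibiotic comparison asks how early antibiotic exposure altered these cells. None of the 10 genes was called, against 0% of the 470 genes, and 1 of them, Nfkb1, had an unadjusted p under 0.05, as had 102 of the 470 genes. Means were lower for 9 of the 10 genes, against 49.1% of all genes. The median log2 difference was -0.46 over the 10 genes and 0.03 over all 470. Groups did not overlap for 2 of the 10 genes (Nfkb1 and Rela, both lower under antibiotics), against 28.9% of all genes in either direction. Without control replicate 3 the median was -0.36 and 8 of the 10 were lower. Signs depend on the scaling: 6 of the 10 were lower when libraries were scaled to the housekeeping genes (median of all 470 genes then 0.31), and 10 of 10 when scaled to the spike-ins (median then -1.92). Relative to that median, 8 to 10 of the 10 genes lay below it under each scaling. The spike-in counts themselves were uneven, at 3437, 7121 and 24369 in control and 29934, 35248 and 19879 in antibiotic libraries. Over all libraries they spread 11.8-fold, against 2.31-fold for total counts, and the cause was not tested.

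The transfer and antibiotic groups were compared next. None of the 10 genes was called (0% of all genes), none had an unadjusted p under 0.05 (12 of the 470 did), and no gene's groups were apart, against 7.45% of all genes in either direction. Means were lower in transfer for 5 of the 10 genes, against 51.3% of all genes, with a median of 0.01 against -0.02.

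Transfer and control, which share the control libraries with the antibiotic comparison, gave no calls (0% of all genes). Among the 10 genes, 1 (Nfkbiz) had an unadjusted p under 0.05, as had 105 of the 470 genes. Means were lower in transfer for 8 of the 10 genes, against 47.2% of all genes, and the median was -0.62 against 0.08. No NF-kB gene's groups were apart, against 26.4% of all genes in either direction. Without control replicate 3 the median was -0.38, with 8 of 10 lower. Under housekeeping scaling, 6 of the 10 were lower and 8 lay below the median of all 470 genes, then 0.46.

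**Figure D2:**
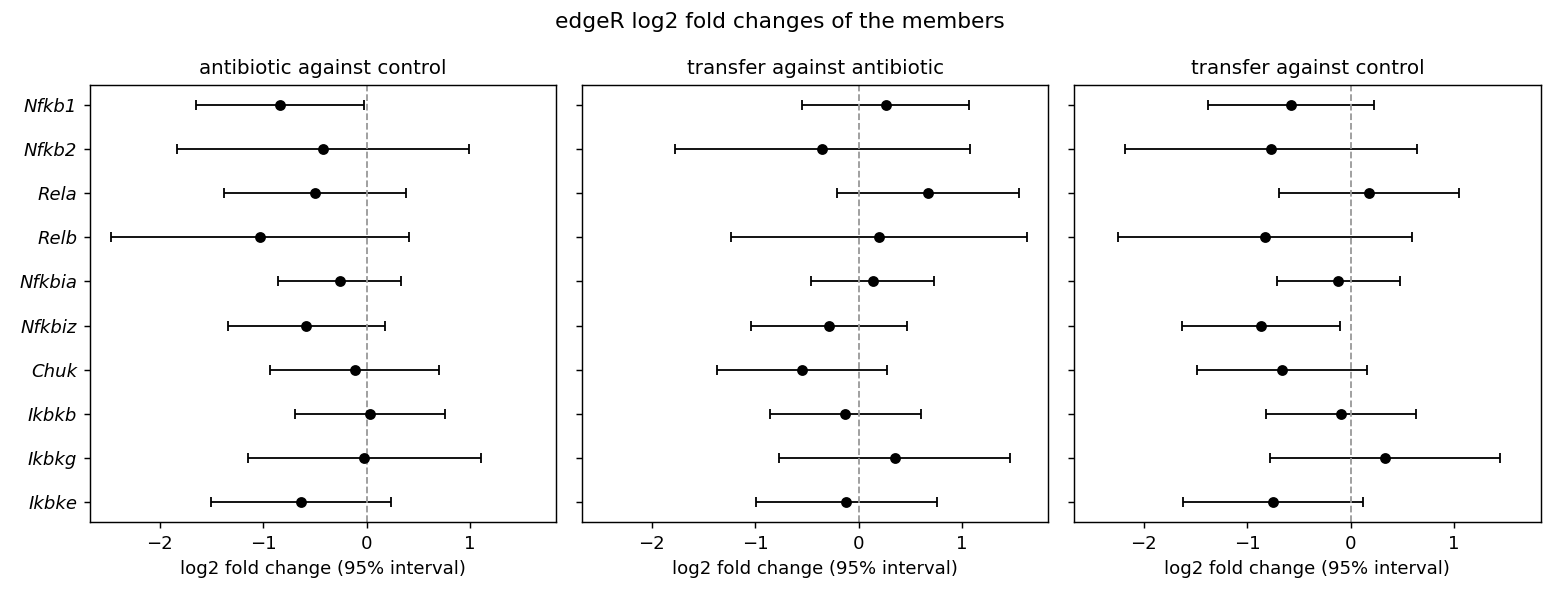
Log2 fold change of each NF-kB gene in the 3 comparisons (points) with 95% intervals (lines) from the edgeR fit, 3 libraries a group. In antibiotic against control, 9 of 10 points lie below 0 and the interval of Nfkb1 (-1.65 to -0.03) is the one that does not reach it.

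The 10 genes tended to vary together over the 9 libraries. Of their 45 pairs, 38 correlated positively in log2 CPM (84.4%, against 50.8% of all 110215 gene pairs), and the median Pearson r was 0.40 against 0.01. The closest pairs were Nfkbiz with Ikbke (0.90), Nfkbiz with Chuk (0.88) and Nfkbiz with Relb (0.83). The partners of the non-canonical dimer, Nfkb2 and Relb, had an r of 0.74, and Nfkb1 and Nfkbia 0.75. The lowest value was -0.53, between Nfkbia and Ikbkg. These are descriptions over 9 libraries that share scaling, group differences and control replicate 3.

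**Figure D3:**
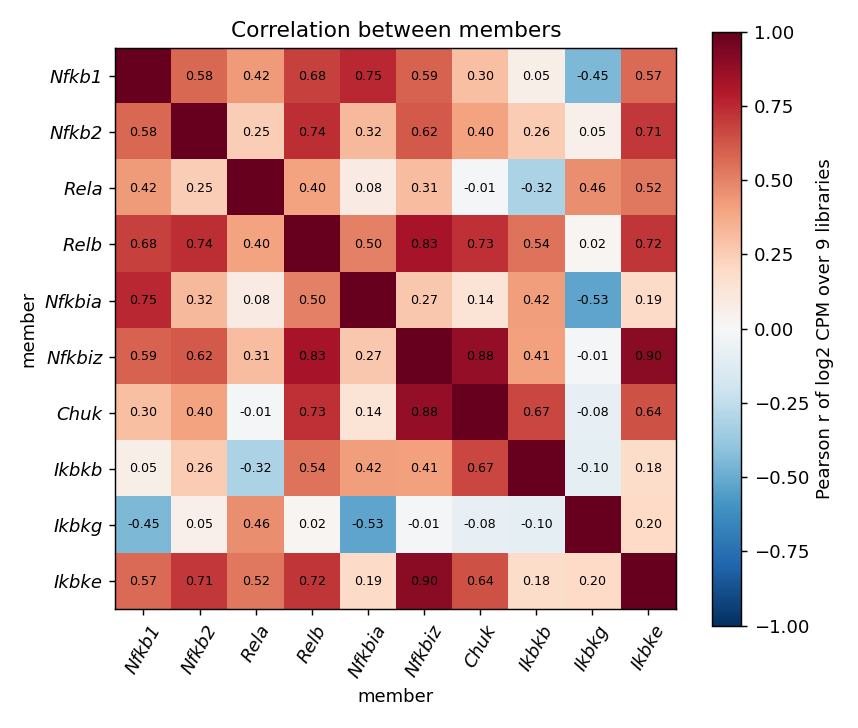
Pearson r between the log2 CPM of each pair of NF-kB genes over the 9 libraries, on a colour scale from -1 to 1. Nfkbiz, Ikbke, Chuk and Relb correlate positively with each other, while Ikbkg has the lowest values, down to -0.53 with Nfkbia.

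Other panel genes followed single members as closely. By Pearson r over the 9 libraries, Nfkb1 was most like Polr2a (0.95), Ptger4 (0.90) and Btnl2 (0.90). Nfkb2 was most like Fcgrt (0.96), Rela most like Pparg (0.87), and Relb most like Pdgfrb (0.92). Pdgfrb is 1 of the 3 tested endothelial and stromal markers, yet Relb had -0.53 with the mean of that list, so its genes do not move alike. Nfkbia was closest to Il3 (0.86), a gene of low counts. Nfkbiz was most like Il4ra (0.98), Il7 (0.97) and Il18 (0.97), the last of them one of the epithelial markers. Chuk followed Psmd7 (0.96), and Ikbke followed Alas1 (0.98), Src (0.95) and Tnfsf13b (0.94). Ikbkb and Ikbkg had no gene as close, with Cd46 (0.77) and Jak1 (0.69) first.

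Marker levels of several cell types moved with these genes, and the T cell list was tested. All 10 members correlated negatively with the summed T cell markers (log2 CPM), against 49.2% of the 457 tested genes that are not T cell markers. By an exact two-sided permutation test over the 9 libraries, adjusted over the 457 genes, 3 of the 10 passed, while 38.5% of all genes did, so that share is no higher than the background. The permutation ignored the groups, so its p-values also take in group differences in both measures. Correlations with group means subtracted, given below, were not tested. Ikbke had r = -0.90 (exact permutation, adjusted p 0.00185) and rho = -0.85 (exact permutation, adjusted p 0.0347), and 7 of the 457 genes were as low. Without control replicates 2 and 3, the libraries farthest from the median of the marker sum, its r was -0.84 over 7 libraries (exact permutation p 0.0115, not adjusted over genes). With the group means subtracted and all 9 libraries kept, control replicates 2 and 3 included, the r of Ikbke was also -0.84.

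Nfkbiz had r = -0.86 (exact permutation, adjusted p 0.00639) and rho = -0.87 (exact permutation, adjusted p 0.0322). Without the same control libraries its r was -0.67 (exact permutation p 0.114), so the test is passed only with them. With group means subtracted and all 9 libraries kept, the r of Nfkbiz was -0.76. That value pools unlike groups. Within the 3 antibiotic libraries r was 0.61 for Nfkbiz and 0.10 for Ikbke. In control libraries it was -0.96 and -0.92, and in transfer libraries -0.998 and -0.94. Relb gave r = -0.71 (exact permutation, adjusted p 0.0276) and rho = -0.65 (exact permutation, adjusted p 0.143). The r of Relb was -0.54 without control replicates 2 and 3 (exact permutation p 0.211, not adjusted). Nfkbia and Ikbkb, in contrast, each had r = -0.12, with exact permutation adjusted p values of 0.858 and 0.812. Other marker lists, apart from macrophage and dendritic, also moved with Nfkbiz and Ikbke. Values here are Pearson r with the mean log2 CPM of each list, given as a description over 9 libraries. On that scale Nfkbiz had -0.97 with T cell, -0.92 with B cell and 0.83 with epithelial markers. Ikbke had -0.93 with T cell, -0.94 with B cell, -0.88 with endothelial and stromal (3 genes, Pdgfrb among them) and 0.83 with epithelial markers. Macrophage and dendritic markers showed little relation, at -0.066 with Nfkbiz and 0.14 with Ikbke. The epithelial list includes Il18, one of the genes most like Nfkbiz. Groups of 3 are too small to test a relation within each group, and both measures are shares of the same library.

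**Figure D4:**
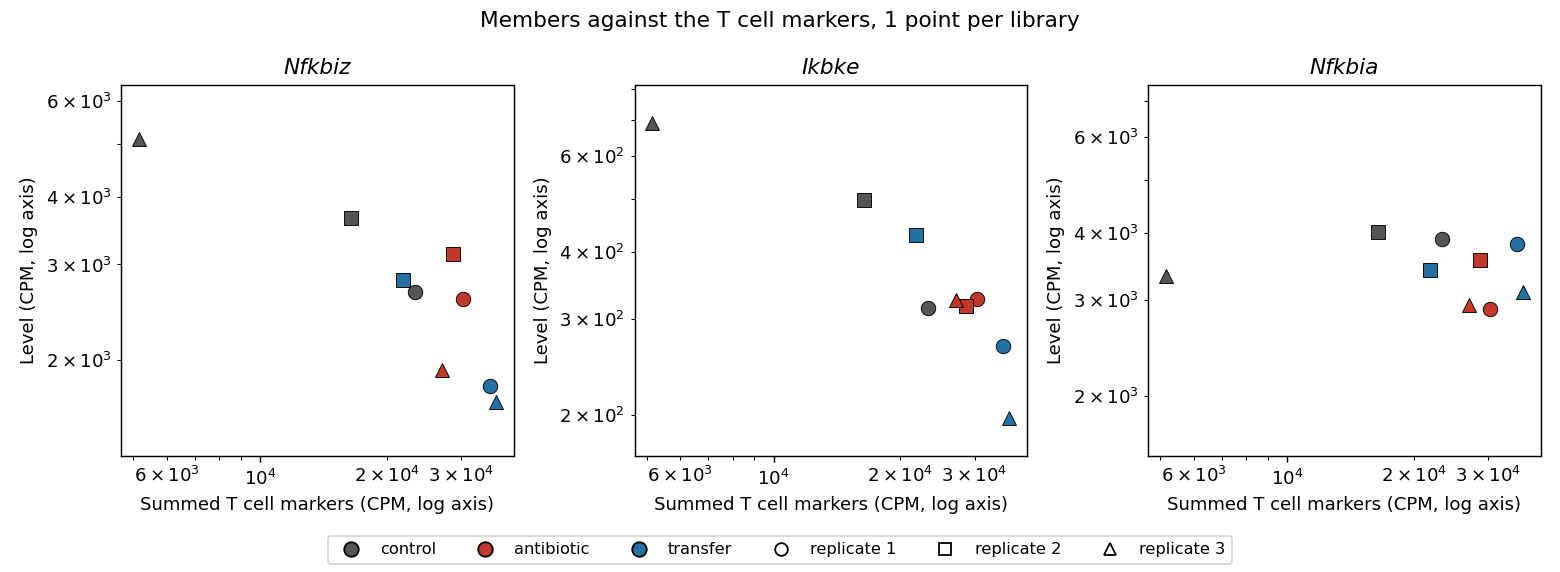
Levels of Nfkbiz, Ikbke and Nfkbia against the summed T cell markers (both in CPM on log axes), 1 point per library, coloured by group with a shape per replicate number. Ikbke is lower where the markers are higher (r = -0.90 in log2 CPM), with control replicates 2 and 3 at the left, whereas Nfkbia shows little slope (r = -0.12).

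Ratios of members within a library do not depend on scaling. Of 6 ratios in 3 comparisons, 1 had groups that did not overlap. The log2 ratio of Ikbkg over Chuk was -5.02 ± 0.26 in transfer and -6.17 ± 0.47 in control libraries (SD, n = 3 each), a difference of 1.14 with an exact permutation p of 0.1, the smallest that 3 against 3 allows. In antibiotic libraries the ratio was -5.89 ± 1.08, spanning both. Ikbkg counts behind these values lay near the detection limit, with 11 and 27 in control replicates 1 and 2 and 21 in transfer replicate 1. The p-values of the ratios were not adjusted for the number of ratios. The ratio of the non-canonical subunits (mean of Nfkb2 and Relb) to the canonical ones (mean of Nfkb1 and Rela) differed by -0.29 between antibiotic and control (exact permutation p 0.8). Its sign turned with single libraries, since it was 0.056 without control replicate 3, 0.30 without antibiotic replicate 1 and -0.89 without antibiotic replicate 2. Between transfer and control it differed by -0.70 (exact permutation p 0.2), and by -0.35 without control replicate 3. That of Nfkbiz over Nfkbia was -0.76 ± 0.42 in transfer and -0.02 ± 0.59 in control libraries (exact permutation p 0.2), a difference of -0.74, or -0.42 without control replicate 3.

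Further genes of the pathway were grouped by role, and no listed gene was called in any comparison. Upstream adaptors and kinases, which carry receptor signals to IKK, had 2 of 11 tested genes with higher and 9 with lower means in antibiotic than in control (median -0.34, against 0.03 for all genes). Irak1, a kinase below the interleukin-1 and Toll-like receptors, gave -1.24 ± 0.50 (edgeR adjusted p 0.172). Its groups overlapped, and its antibiotic counts were low, at 19, 7 and 40, with the 7 below the detection limit. Its relative Irak2 gave -0.76 ± 0.36 (483 ± 86.6 against 821 ± 242 CPM), with no overlap between the groups. Tirap, an adaptor of Toll-like receptors, gave -1.05 ± 0.54. In transfer against control the same list had 2 higher and 9 lower with a median of -0.58, against 0.08 for all genes. Groups were apart for 2 lower genes, Irak2 (-0.78) and Tirap (-1.21), and for 1 higher gene of the 11. Of all genes, 26.4% were apart in either direction. The I-kappa-B relative Bcl3 gave -1.07 ± 0.55 under antibiotics (80.6 ± 47.7 against 166 ± 80.7 CPM).

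Genes that restrain the pathway were split, 2 higher and 3 lower of 5 in antibiotic against control (median -0.39). Tollip, which dampens Toll-like receptor signalling, had 932 ± 28.4 CPM under antibiotics and 1802 ± 83.4 CPM in control, a log2 difference of -0.95 ± 0.30 (edgeR adjusted p 0.104). These groups did not overlap. The transfer mean lay between, at 1416 ± 322 CPM, with 1 of the 3 transfer libraries (1787 CPM) inside the control range of 1715 to 1881 CPM. Sigirr, a decoy-like receptor of the interleukin-1 family, gave -1.23 ± 0.61. Tnfaip3, which encodes the ubiquitin-editing enzyme A20, went the other way at 0.92 ± 0.47 (2568 ± 476 against 1357 ± 885 CPM, transfer 2686 ± 711 CPM). No difference in this list passed the test.

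Known NF-kB target genes had higher means under antibiotics for 12 of 15 (median 0.69, against 0.03 for all genes). Ptgs2, the inducible cyclooxygenase, had 189.5 ± 83.7 CPM under antibiotics and 22.8 ± 13.1 CPM in control (above the limit in 2 of 3), a log2 difference of 3.03 ± 0.59 with the smallest p of all genes (edgeR adjusted p 0.0614). Ccl20, a chemokine that recruits cells bearing CCR6, was 105 ± 51.6 CPM against 35.7 ± 3.22 CPM (1.53 ± 0.51; edgeR adjusted p 0.116), and 38.5 ± 9.86 CPM in transfer libraries. Nos2, the inducible nitric oxide synthase, was lower, at 146 ± 53.7 CPM against 391 ± 172 CPM (-1.43 ± 0.53), and 104 ± 58.0 CPM in transfer libraries. In transfer against antibiotic 4 of the 15 targets were higher and 11 lower (median -0.38), and in transfer against control 11 were higher and 4 lower (median 0.34). The macrophage, T cell and B cell marker levels given above moved between the same groups, and their part was not tested.

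Ligands, receptors and chemokines of the non-canonical arm had no common direction, with 6 of 10 tested genes higher and 4 lower under antibiotics (median 0.28), and 5 and 5 in transfer against control (median 0.03). Tnfsf13b, which encodes the B cell survival factor BAFF, was 213 ± 48.6 CPM under antibiotics, 188 ± 82.5 CPM after transfer and 462 ± 200.2 CPM in control (of n = 3 each; -1.12 ± 0.45 for antibiotic; edgeR adjusted p 0.172). Ltbr, the lymphotoxin beta receptor, gave -0.95 ± 0.54 and overlapped between groups. Cxcl13, a chemokine of B cell follicles, passed the limit in 1 control, 2 antibiotic and 1 transfer library, so its difference of 1.67 ± 0.70 rests on few counts.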

How the data were processed

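Per the labels, total RNA of ileal epithelial cells was purified by TRIzol and an RNeasy column and read on the nCounter panel. The authors deposited raw probe counts for each library, with no normalisation, and beside them a signal column that equals the deposited counts times 1 factor per library (0.734 to 1.82). The software that made them is not given in the sources used here. The 561 gene probes (547 endogenous, 14 housekeeping) were analysed; 8 negative and 6 positive control probes set the detection limit and an alternative scaling. Total counts were 323129 to 747434, a 2.31-fold spread. Counts of the positive control probes, the spike-ins, spread 11.8-fold, which limits the scaling based on them.

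Counts were tested with edgeR 4.0.16 (R 4.3.3) by the quasi-likelihood test with TMM factors, in 1 model of the 9 libraries (6 residual degrees of freedom), on 470 genes above the detection limit in 3 or more libraries. Benjamini-Hochberg adjustment ran over the 470 genes at a threshold of 0.05. The biological coefficient of variation was 41.7%. A prior count of 2 was used for the log2 CPM of the gene-to-gene and marker-list correlations and the principal components, not in the test. The script was tested on simulated data. Relations with the T cell sum and within-library ratios used exact permutation tests over libraries.

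Alternatives were DESeq2 1.42.0, limma 3.58.1 on the log2 deposited signal plus 1, other scalings, no filter, background subtraction, a replicate block, fits of the compared groups alone, and leaving out each library. The 10 members, the pathway lists and the marker lists were chosen with earlier results of these data known. All members are named; from each pathway list the text names up to 3 genes with the smallest unadjusted p in antibiotic against control, and for each member up to 3 panel genes of highest Pearson r. Whether replicate numbers pair the libraries cannot be settled with groups of 3. Deviations from the group means correlated from -0.488 to 0.337 for same-numbered libraries and from -0.497 to 0.619 for the others.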

Additional observations from a re-analysis of the deposited data

How the results depend on the processing

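No NF-kB gene was called by edgeR in any comparison or under any alternative run, DESeq2 included, which gave Ikbkg no adjusted p in transfer against control. The smallest adjusted p of a member was 0.0755 with edgeR (Nfkbiz, transfer against control, without control replicate 1) and 0.0766 with DESeq2 (the same gene and comparison). In antibiotic against control, where edgeR called 0 of 470 genes, DESeq2 called 51, upper-quartile scaling 12, spike-in scaling 2 and a threshold of 0.10 gave 30; leaving out 1 library gave 0 to 23, of which 23 came without control replicate 1, 9 without its replicate 3, and 1 without antibiotic replicate 3. In transfer against control DESeq2 called 40, and leaving out 1 library gave 0 to 2 (1 without control replicate 1 and 2 without its replicate 3). The replicate block called 0 genes and gave Nfkb1 -0.83 (edgeR adjusted p 0.233) and Relb -1.39 for antibiotic, and Nfkbiz -0.89 for transfer, against control. Causes of these changes were not tested.

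Some members changed sign, and the cause was not tested. In antibiotic against control, Ikbkb was -0.034 with DESeq2, -0.21 with upper-quartile scaling, -2.05 with spike-in scaling and -0.025 in a fit of the compared groups alone. Housekeeping scaling gave Nfkbia 0.015, Chuk 0.18 and Ikbkg 0.37, the deposited signal Chuk 0.071 and Ikbkg 0.33, and the block Ikbkg 0.067. In transfer against antibiotic, Ikbkb was 0.016 with upper-quartile scaling, 0.025 with housekeeping scaling and 0.075 on the deposited signal. Scaling to the spike-ins (median of all 470 genes then 2.03) gave Nfkb2 1.503, Nfkbiz 1.87, Chuk 1.76, Ikbkb 2.15 and Ikbke 1.86. In transfer against control, housekeeping scaling gave Nfkbia 0.28 and Ikbkb 0.34, spike-in scaling Ikbkb 0.10, and the deposited signal Nfkbia 0.28 and Ikbkb 0.32. Leaving out 1 library in turn gave, in antibiotic against control, -0.27 to 0.19 for Ikbkb, -0.48 to 0.17 for Chuk, -0.35 to 0.50 for Ikbkg and -0.73 to 0.034 for Nfkb2. In transfer against antibiotic it gave -0.58 to 1.32 for Relb, -0.28 to 0.17 for Ikbkb, -0.028 to 0.44 for Nfkb1, -1.13 to 0.029 for Nfkb2 and -0.48 to 0.081 for Ikbke. In transfer against control it gave -0.00402 to 0.85 for Ikbkg, -0.23 to 0.057 for Ikbkb and -0.20 to 0.31 for Rela. The other 496 values of members kept their sign and side of the threshold. Depth limits Ikbkg, which was below the detection limit in 1 library, and Nfkb2, at 1.25 times the limit in antibiotic replicate 1.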
